A study of Mus musculus with 58 samples.

Results

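The genes described here are the insulin gene *Ins2*, the ligand gene *Igf1* and its binding protein gene *Igfbp2*, the receptor genes *Insr* and *Igf1r*, the adaptor genes *Irs1* and *Irs2*, and the FOXO transcription factor genes *Foxo1*, *Foxo3* and *Foxo4*. They were chosen by symbol, as 10 of the 52459 genes in the table of raw read counts, and all 10 were found there. RNA from whole retinas of male mice was sequenced at 6 time points of a 12 h light and 12 h dark cycle, given as Zeitgeber time (ZT), in which lights go on at ZT0 and off at ZT12. Controls were C57BL/6 littermates without the diabetic phenotype. Diabetic mice were C57BL/6 males heterozygous for the Akita mutation of *Ins2* (Ins2Akita), which makes proinsulin misfold in pancreatic beta cells. All mice were 4 months old, had free access to food, and were perfused with cold phosphate-buffered saline without Ca2+ and Mg2+ before dissection, with night tissue handled under dim red light. There were 30 control libraries (5, 6, 5, 5, 5 and 4 at ZT1, ZT5, ZT9, ZT13, ZT17 and ZT21) and 28 diabetic libraries (5, 5, 5, 4, 4 and 5). As a model, the mutation acts through loss of insulin from the pancreas, and a count per gene cannot tell the mutant from the normal *Ins2* allele.

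Insulin and IGF ligands bind related receptor tyrosine kinases. The receptors phosphorylate the IRS adaptors, which recruit PI3-kinase, and the AKT kinase that this switches on phosphorylates FOXO factors and holds them out of the nucleus. When insulin is low, FOXO factors enter the nucleus and turn on genes of fasting, stress defence and growth arrest, and among their known targets in other tissues are genes of the receptors and adaptors themselves. In the retina, signalling through the insulin and IGF receptors is known for its part in the survival of neurons and photoreceptors.

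The study asked whether diabetes alters daily rhythms of retinal transcripts. Over the day, *Igf1r*, *Irs1* and *Foxo1* were called rhythmic in both genotypes, as were 11.9% of all genes, and were highest at ZT17. The calls rest on an unadjusted p and a fold between single libraries, as set out below. With the fold between time point means, 0 of 9 genes passed in control and none of these 3 in diabetic retinas. After adjustment over all genes, *Irs1* did not pass in control (empirical JTK_CYCLE adjusted p = 0.0741). The *Foxo1* control call was lost without 1 library. The proximal promoters of *Igf1r*, *Irs1* and *Foxo1* are shown because these 3 genes were called rhythmic in both genotypes. Each is the 250 bases before the RefSeq gene start (RefSeq table, build GRCm38.p6), written 5′ to 3′ on the strand of the gene. Capitals mark a match to 1 of 5 motifs searched on both strands with exact letters.
*Igf1r*, chr7:67952007-67952256, plus strand: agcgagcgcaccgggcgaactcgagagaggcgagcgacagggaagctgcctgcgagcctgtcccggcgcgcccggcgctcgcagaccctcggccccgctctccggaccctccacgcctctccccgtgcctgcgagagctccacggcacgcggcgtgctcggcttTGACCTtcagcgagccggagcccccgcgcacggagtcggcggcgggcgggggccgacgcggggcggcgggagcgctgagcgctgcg
*Irs1*, chr1:82291440-82291689, minus strand: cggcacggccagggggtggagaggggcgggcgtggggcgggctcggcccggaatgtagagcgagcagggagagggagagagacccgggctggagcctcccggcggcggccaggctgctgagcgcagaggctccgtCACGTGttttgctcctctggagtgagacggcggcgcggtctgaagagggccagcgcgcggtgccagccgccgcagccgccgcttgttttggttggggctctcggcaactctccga
*Foxo1*, chr3:52268087-52268336, plus strand: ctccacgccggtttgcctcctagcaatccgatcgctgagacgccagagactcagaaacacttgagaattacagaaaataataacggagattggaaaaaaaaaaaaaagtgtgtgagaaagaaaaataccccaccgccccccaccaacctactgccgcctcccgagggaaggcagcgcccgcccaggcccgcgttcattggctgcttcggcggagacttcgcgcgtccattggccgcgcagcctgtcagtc

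The capitals in the *Igf1r* promoter are the ROR element core (AGGTCA, read on the other strand), which 14.0% of all 32851 promoters of this length in the table held. The capitals in the *Irs1* promoter are an E-box (CACGTG), the element bound by CLOCK and BMAL1, which 6.02% of all promoters held. The *Foxo1* promoter held none of the 5, which also included the FOXO site (GTAAACA, 3.17% of promoters), the D-box (TTATGTAA, 0.819%) and the CRE (TGACGTCA, 1.55%). None of the 5 motifs overlaps another in these windows, and a match is a description of letters only. Members not called rhythmic held the same motifs, an E-box in *Irs2* and in 1 of the 2 promoters of *Igfbp2*, and a ROR element in *Igf1*. Guanine and cytosine made up 77.6% of the *Igf1r* window, 72.4% of the *Irs1* window and 56% of the *Foxo1* window, against a median of 52.4% over all promoters. Of the 10 genes, 7 had a promoter in the table, and *Ins2*, *Insr* and *Foxo4* had none.

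Total counts ran from 7773117 to 22147398 per library (median 15406440), so the 9 genes other than *Ins2* rested on at least 80 reads in every library. Markers of the retina were present in every library, as the tissue label says: the 5 cone markers summed to 9981 to 12779 normalized counts and the 5 markers of Müller glia to 36723 to 54540. In diabetic retinas 2 of 5 cone markers (*Gnat2* and *Pde6h*), 1 of 6 rod markers (*Pde6a*), 1 of 3 tested lens markers (*Cryaa*) and 1 of 5 tested microglia markers (*Cx3cr1*) fell, beside 1.41% of all genes, and 1 of 5 amacrine markers (*Chat*) rose, beside 1.58%. The defining markers of lens summed to 24806, 28155 and 37579 normalized counts in 3 control libraries (ZT17 replicate 5, ZT21 replicate 2 and ZT1 replicate 6) and to at most 873 in every other library. Libraries also differed in a trend with base composition, measured as the median log2 deviation of the 25% of genes richest in GC minus that of the 25% poorest. It was highest in control ZT17 replicate 3 (0.70), diabetic ZT17 replicate 3 (0.63), control ZT17 replicate 1 (0.54) and control ZT9 replicate 4 (0.52), and lowest in control ZT13 replicate 2 (-0.33). In bulk tissue, fewer cells of a type and less RNA per cell cannot be told apart, and p-values here rest on differences between these retinas. In the genotype test over all time points that spread includes time of day, as time was not a term.

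The insulin gene itself was close to silent in the retina. *Ins2* (ENSMUSG00000000215.11, GRCm38 chromosome 7, 142678656 to 142743381) gave 71 reads in all 58 libraries together, and 29 libraries had none. In control retinas 10 of 30 libraries held 23 reads, with no more than 6 in a library, which is 0.0526 reads for every 1000000 counts (95% exact Poisson interval 0.0334 to 0.0790). In diabetic retinas 19 of 28 libraries held 48 reads, again with no more than 6 in a library, which is 0.111 reads for every 1000000 counts (0.0821 to 0.148). The intervals cover counting error only, and most libraries of either genotype lay at or under 3 reads.

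The diabetic libraries with *Ins2* reads were spread over the day, with reads in 4 of 4 libraries at ZT13 (11 reads) and 5 of 5 at ZT21 (16 reads). In control retinas the most reads were also at ZT21, 9 reads in 2 of 4 libraries, against 2 reads in 1 of 5 libraries at ZT13. *Ins2* did not reach the filter for expressed genes, so it was left out of the tests below. Without that filter, its difference over all time points had an edgeR p of 0.0265 and an adjusted p of 0.364 among 37233 genes. A two-sided permutation test of this rate, chosen after the counts were seen, gave p = 0.0175 with 100000 resamples. The related insulin gene *Ins1* had 0 reads in every library.

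The other 9 genes were expressed in every library, with median levels from the middle of the range of expressed genes to near its top. Levels between genes are given as normalized counts per kilobase of exon, as the lowest, median and highest of the 58 libraries. *Foxo3* (314, 376 and 474) and *Igf1r* (319, 372 and 458) stood at the top, above 92.8% and 92.7% of 18360 expressed genes with a known exon length. *Insr* followed (192, 211 and 230), with a level above 84.1% of genes. The receptor for IGF was thus higher than the receptor for insulin in all libraries, and their ranges did not overlap.

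Of the adaptors, *Irs2* (142, 168 and 220) lay above *Irs1* (82.4, 103 and 125) without overlap, and overlapped *Insr*. *Foxo4* (65.4, 75.2 and 98.7), *Foxo1* (56.4, 69.9 and 84.0) and *Igfbp2* (50.004, 69.7 and 104) overlapped each other and *Irs1*. *Igf1* (26.4, 53.2 and 65.2) was the lowest of the 9, at the middle of the retinal transcriptome with 48.9% of genes below it.

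**Figure D1:**
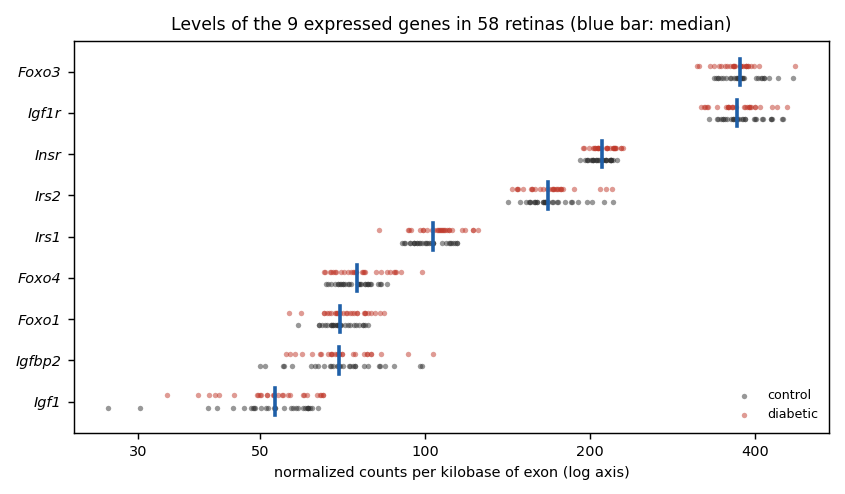
Normalized counts per kilobase of exon (log axis) for the 9 expressed genes, with 1 point per library (black, 30 control; red, 28 diabetic) and a blue bar at the median of all 58. *Foxo3* and *Igf1r* sit near 376 and 372, *Insr* near 211, and *Igf1* lowest near 53.2 with 2 control libraries far to the left.

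Spread between libraries also set the genes apart. *Insr*, the insulin receptor gene, was the steadiest, with a coefficient of variation of 4.46% over 58 libraries. *Igf1* (16.7%) and *Igfbp2* (15.7%) varied most, and the remaining 6 expressed genes lay between 8.06% and 10.9%. The library trend with GC content moved with these values as a description across 58 libraries that share it: Pearson's r with the trend was -0.80 for *Igf1*, 0.78 for *Irs2*, 0.69 for *Foxo3* and 0.67 for *Igfbp2*, and between -0.46 and 0.53 for the other 5.

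Diabetes did not shift the level of any of these 9 genes detectably. Over all time points 0 of 9 passed an adjusted p of 0.05 in edgeR's quasi-likelihood test with Benjamini-Hochberg adjustment, against 2.99% of 19120 expressed genes (572 genes, 2970 with an unadjusted p under 0.05, and 669 called by DESeq2). The lowest unadjusted p of the 9 was 0.0514, and DESeq2 called 0 of them. With the library trend in GC content removed, 3 had an unadjusted p under 0.05 and none passed: *Foxo3* (log2 difference -0.07, SE 0.03, edgeR adjusted p = 0.121), *Irs1* (adjusted p = 0.183) and *Insr* (adjusted p = 0.254). All 9 intervals of 95% together ran from a level 8.10% lower to 10.4% higher in diabetic retinas, so larger differences of the averages over the day lie outside them. Mean differences were positive for 6 genes and negative for 3, with a median log2 difference of 0.01 (all genes, 0.00).

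Receptors were close to equal. Control retinas had 2639, 2876 and 3083 normalized counts of *Insr* (lowest, median and highest of 30), and diabetic retinas had 2675, 2946 and 3164 (of 28), a log2 difference of 0.03 (SE 0.02, adjusted p = 0.536). For *Igf1r* the values were 5551, 6264 and 7555 in control and 5360, 6171 and 7691 in diabetic retinas, a log2 difference of -0.03 (SE 0.03, adjusted p = 0.754). The ranges of the genotypes overlapped nearly in full for both receptors.

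The adaptor *Irs1* had the lowest p of the 9 in this fit. Control libraries had 831, 921 and 1049 normalized counts and diabetic libraries 754, 976 and 1145. The diabetic mean was higher at 6 of 6 time points, but nearly equal at ZT9 (909 against 908, with an edgeR log2 difference of -0.005). Over the day the log2 difference was 0.06 (SE 0.03, edgeR unadjusted p = 0.0514, adjusted p = 0.326), which did not pass. *Irs2*, the other main adaptor, had 899, 1047 and 1394 normalized counts in control and 912, 1080 and 1388 in diabetic retinas, a log2 difference of -0.00 (SE 0.04, adjusted p = 0.982).

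*Foxo1* had 508, 603 and 683 normalized counts in control and 489, 623 and 728 in diabetic retinas, with a log2 difference of 0.04 (SE 0.03, adjusted p = 0.544). For *Foxo3*, the most abundant FOXO gene, these were 2558, 2845 and 3563 in control and 2375, 2820 and 3589 in diabetic retinas (log2 difference -0.04, SE 0.03, adjusted p = 0.597). *Foxo4* gave 230, 263 and 297 in control and 228, 261 and 344 in diabetic retinas (0.04, SE 0.04, adjusted p = 0.627). The genotypes overlapped for all 3 FOXO genes, and the 4 highest *Foxo4* libraries were diabetic ones from ZT17 and ZT21.

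The ligand *Igf1* had 262, 528 and 633 normalized counts in control and 335, 525.8 and 645 in diabetic retinas, a log2 difference of 0.01 (SE 0.07, adjusted p = 0.973). Its binding protein gene *Igfbp2* had 92.4, 129 and 182 in control and 103, 128 and 191 in diabetic retinas, a log2 difference of 0.00 (SE 0.06, adjusted p = 0.991). These 2 genes had the widest intervals of the 9.

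**Figure D2:**
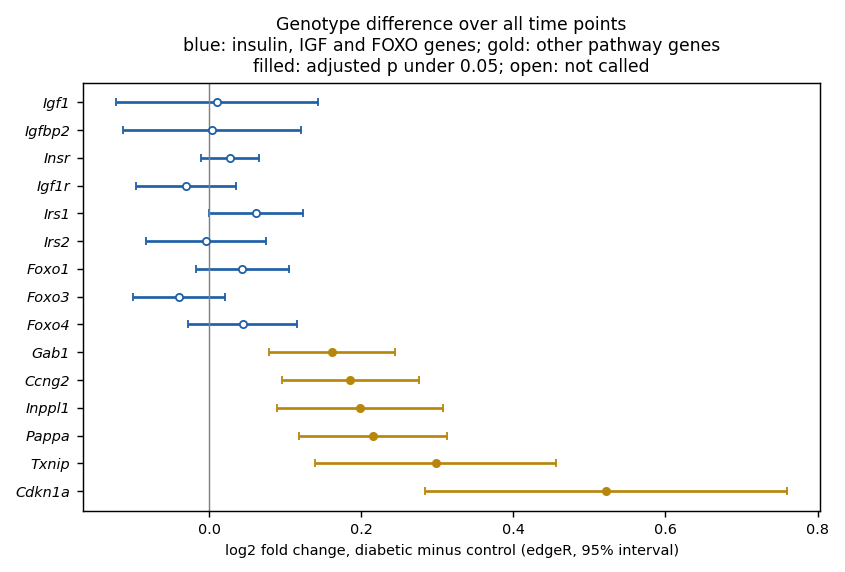
Log2 fold change between diabetic and control retinas over all time points, from edgeR on 30 control and 28 diabetic libraries, with bars for 95% intervals; blue marks the 9 genes of insulin, IGF and FOXO, gold the 6 other pathway genes that passed. All 9 blue intervals span 0, and the 6 gold points lie to the right, up to 0.52 for *Cdkn1a*.

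At single time points the picture was the same. Of 54 tests (9 genes at 6 time points), 0 passed in edgeR, beside 0.0105%, 0.0209%, 0.00523%, 0%, 0.167% and 0% of all 19120 genes at ZT1, ZT5, ZT9, ZT13, ZT17 and ZT21, with 852 to 1686 genes at an unadjusted p under 0.05 and 1 to 87 called by DESeq2 at a time point. Log2 differences ran from -0.13 to 0.23, both ends from *Igfbp2* (ZT1 and ZT13). A single test had an unadjusted p under 0.05, that of *Foxo4* at ZT17, and its adjusted p was 0.389.

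*Foxo4* at ZT17 had 263, 264, 271, 287 and 289 normalized counts in the control libraries and 283, 308, 309 and 344 in the diabetic ones. The lowest diabetic library lay among the controls and the other 3 lay above all of them, with a log2 difference of 0.18 (SE 0.07, unadjusted p = 0.0144). At ZT21 the diabetic values (259, 261, 297, 301 and 315) again reached higher than the control values (235, 266, 271 and 297), with more overlap and a log2 difference of 0.10 (SE 0.07, edgeR adjusted p = 1.00).

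**Figure D3:**
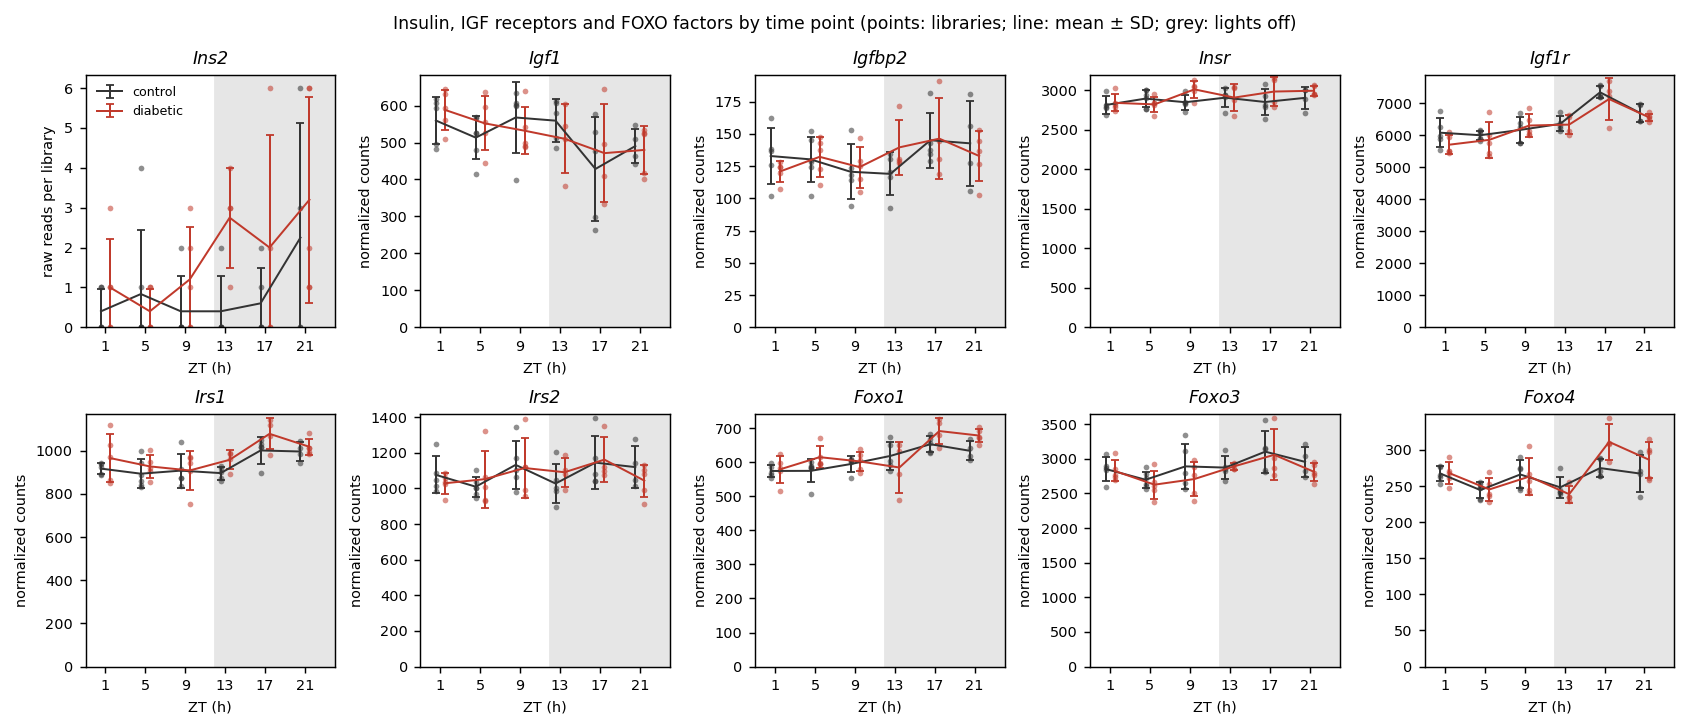
Values of the 10 genes against ZT (normalized counts, raw reads for *Ins2*), with 1 point per library and lines at the mean ± SD of 4 to 6 libraries (black, control; red, diabetic; grey, lights off). *Igf1r* rises to 7338 and 7127 at ZT17 in both genotypes, *Insr* stays flat near 2900, and the *Foxo4* lines part at ZT17 (275 and 311).

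The clearest pattern was in time of day. Rhythm was tested in each genotype with empirical JTK_CYCLE, a rank test against 24 h waveforms, and a gene was called rhythmic at an unadjusted p under 0.05 with a highest library more than 25% above the lowest. The study's limits of p and fold were used, but its fold is one predicted by the program, and taking it between single libraries is a choice made here. With the fold taken between time point means, 0 of 9 genes passed in control and 1 of 9 in diabetic retinas. In control retinas 3 of 9 genes were rhythmic (*Igf1r*, *Irs1* and *Foxo1*), beside 21.8% of 19120 genes. In diabetic retinas 4 of 9 were rhythmic (the same 3 genes and *Foxo4*), beside 23.9%. The 3 genes rhythmic in both genotypes compare with 11.9% of all genes, and such small counts are near or above the background without a test. When p-values were adjusted over all genes, *Irs1* in control (adjusted p = 0.0741) and *Foxo4* in diabetic retinas (adjusted p = 0.0544) no longer passed, and 8.23% and 10.3% of all genes did.

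Every rhythmic gene of the set had its acrophase, the time of the peak of a fitted 24 h cosine, in the dark phase. Among all rhythmic genes 49.2% in control and 51.8% in diabetic retinas peaked between ZT12 and ZT24. Markers of other cells also moved with time of day. The 8 markers of the retinal pigment epithelium, a tissue that can come along in dissection, summed to medians of 666, 748, 1655, 1656, 1592 and 2014 normalized counts at ZT1, ZT5, ZT9, ZT13, ZT17 and ZT21 in control, and 635, 313, 1110, 1754, 1228 and 2028 in diabetic retinas. These sums were high from ZT9 on, which includes the end of the light phase, and highest at ZT21. The rhythm test called 4 of its 7 expressed markers in control and 5 in diabetic retinas. The 5 markers of Müller glia had their highest median sum at ZT17 in both genotypes (51755 and 49705), and 2 and 4 of them were rhythmic. The part of either in the rhythms below was not tested.

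*Igf1r*, the receptor gene, had the largest fitted amplitude of the rhythmic members in each genotype, close to that of *Foxo4* in diabetic retinas. In control retinas it had 7184, 7197, 7225, 7529 and 7555 normalized counts at ZT17, against 5828, 5888, 5921, 6070, 6131 and 6146 at ZT5. In diabetic retinas it had 6209, 7223, 7386 and 7691 at ZT17, against 5453, 5495, 5513, 5950 and 6102 at ZT1. The libraries at the peak and at the trough did not overlap in either genotype. Peak and trough were picked, here and below, from these same values, which favours such a gap. It is thus a description, was not counted over all genes, and was also seen for *Foxo4* in control retinas, which was not called. Means at ZT17 were 22.4% above the lowest time point in control and 24.98% above it in diabetic retinas. The fitted relative amplitude was 9.02% ± 1.41 (SE, n = 30 libraries) with an acrophase of ZT17.5 ± 0.622 h in control (empirical JTK_CYCLE permutation p = 2.4e-05, adjusted p = 0.00184), and 9.23% ± 1.92 (SE, n = 28 libraries) at ZT16.1 ± 0.767 h in diabetic retinas (permutation p = 0.000233, adjusted p = 0.00679). The call held without any single library and without any single time point.

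*Foxo1*, the FOXO factor best known for the response to fasting, also peaked at ZT17. Control libraries had 627, 632, 657, 668 and 683 normalized counts at ZT17 and 555, 563, 568.5, 588 and 599 at ZT1, without overlap. Diabetic libraries had 643, 682, 716 and 728 at ZT17 and 515, 575, 583, 598 and 624 at ZT1, again without overlap. Relative amplitude was 6.47% ± 1.19 at ZT16.8 ± 0.742 h in control (p = 2e-05, a permutation p, adjusted p = 0.00174) and 6.82% ± 2.14 at ZT18.6 ± 1.21 h in diabetic retinas (permutation p = 0.00168, adjusted p = 0.0245). The control call rested on the fold limit: without ZT5 replicate 4, the lowest library, or without ZT5 the highest library was no longer 25% above the lowest, with permutation p-values no higher than 0.00172. The diabetic call was lost without ZT17 (permutation p = 0.0525) or ZT21 (permutation p = 0.138).

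*Irs1* had a smaller night rise in control than in diabetic libraries, and the difference between them was not called. At ZT17 the control values were 895, 1016, 1019, 1029 and 1049 normalized counts, and at ZT5 831, 842, 858, 886, 945 and 1000, which overlap. Diabetic values at ZT17 were 980, 1070, 1120 and 1145, and at ZT9 754, 908, 944, 968 and 970, which do not. Relative amplitude was 5.97% ± 1.58 at ZT19.2 ± 1.00 h in control (permutation p = 0.00797) and 7.51% ± 1.99 at ZT18.8 ± 1.03 h in diabetic retinas (permutation p = 0.00445). Without ZT21 the p-values were 0.0625 and 0.0716, and without ZT17 the diabetic p was 0.0688.

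*Foxo4* was called rhythmic in diabetic retinas and not in control retinas. Its diabetic libraries at ZT17 (283 to 344 normalized counts) lay above those at ZT13 (229, 234, 235 and 256), with means 30.4% apart. Control libraries at ZT17 (263 to 289) lay above those at ZT5 (230 to 256), with means 12.5% apart. Relative amplitude was 9.13% ± 2.51 at ZT19.2 ± 1.08 h in diabetic (permutation p = 0.00599) and 3.803% ± 1.77 at ZT19.5 ± 1.74 h in control retinas (permutation p = 0.181). The difference in rhythm itself did not pass (edgeR interaction of genotype with a 24 h cosine and sine, adjusted p = 1.00). The diabetic call was lost without ZT21 (permutation p = 0.0716) and when the library trend with GC content was removed (permutation p = 0.0910), while in control retinas *Foxo4* was called without ZT9 (permutation p = 0.0113) and without the 3 libraries with lens RNA (permutation p = 0.0482).

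The remaining genes were not called rhythmic in either genotype. *Foxo3* was highest at ZT17 in both (3104 ± 302 and 3058 ± 370 normalized counts, SD, n = 5 and 4) and lowest at ZT5 (2698 ± 118 and 2627 ± 200.6, SD, n = 6 and 5), with overlap between libraries. Its p was 0.0869 in control and 0.0674 in diabetic retinas by the permutation test of empirical JTK_CYCLE, and 0.0371 and 0.0233, unadjusted, by an edgeR test of a 24 h cosine. With the GC trend removed, its p rose to 0.820 and 0.237. It was called in control retinas without the lens libraries (permutation p = 0.0428), without ZT1 (0.0325) or without ZT9 (0.0435), and in 2 of 30 fits without a single library. In diabetic retinas it was called with TMM-scaled counts (permutation p = 0.0439), without ZT9 (0.0340) and in 5 of 28 fits without a single library.

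*Insr* was flat: in control the time point means ran from 2816 to 2909 normalized counts, and in the diabetic group from 2824 to 3014, with a relative amplitude of 0.525% ± 1.102 and 2.45% ± 1.23 (permutation p = 0.933 and 0.0745). *Igf1* was the member with a daytime acrophase, at ZT7.04 ± 1.94 h in control and ZT4.33 ± 1.61 h in diabetic retinas, and did not pass (permutation p = 0.0869 and 0.0825). At ZT17 its control libraries split into 262 and 299 against 476, 529 and 576 normalized counts, and the low pair were the control libraries with the highest values of the GC trend. With that trend removed, its control p was 0.0361 and its diabetic p 0.0605, so the control call changed.

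*Igfbp2* had its highest mean at ZT17 in both genotypes (145 ± 21.3 and 146 ± 31.7 normalized counts, SD, n = 5 and 4) and permutation p-values of 0.0869 and 0.334. *Irs2* also had its highest mean at ZT17 (1145 ± 148 and 1162 ± 128, SD, n = 5 and 4), with permutation p-values of 0.478 and 0.253. At that time a single library of each genotype, replicate 3 in both, stood highest for *Irs2* (1394 and 1352), and both had the highest GC trend of their genotype. How far this trend sets the values was not tested beyond the fits with it removed, in which *Igf1r*, *Irs1* and *Foxo1* were rhythmic in both genotypes.

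The count of rhythmic genes depended on single libraries and on the fold used. Without control ZT9 replicate 4, 6 of 9 genes were called in control retinas (*Igf1*, *Igfbp2* and *Foxo3* joined), without control ZT21 replicate 1, 5 were, and without the 3 lens libraries, 5 were. Between time point means, *Foxo4* in diabetic retinas passed both limits, while the means of *Igf1r*, *Irs1* and *Foxo1* all spanned less than 25%. The control means of *Igf1* spanned 32.5% and failed on p.

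No gene of the set was called for a difference in rhythm between genotypes. The edgeR test of the difference called 0 of 9, beside 0% of 19120 genes (657 with an unadjusted p under 0.05, and 0 called by DESeq2), with unadjusted p-values from 0.179 to 0.978. As it called no gene at all, this test cannot show that the rhythms were the same. *Igf1r* peaked 1.37 h earlier in diabetic retinas by the fitted cosine and *Foxo1* 1.82 h later, neither a called difference, and differences in relative amplitude for the 9 genes, from -2.04 to 5.33 percentage points, were each under 2 of their SEs.

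**Figure D4:**
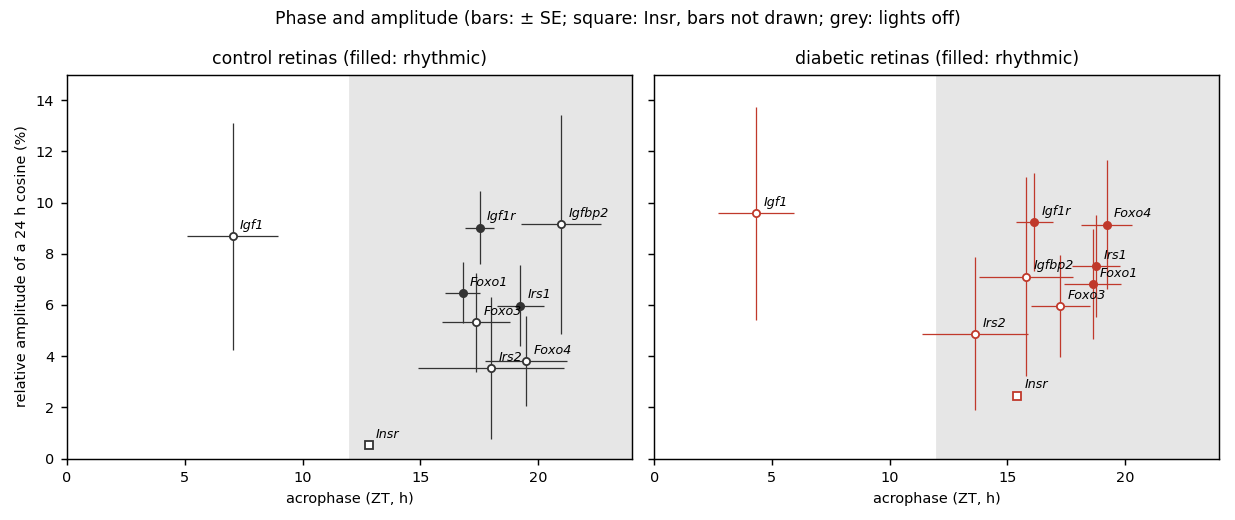
Relative amplitude of a fitted 24 h cosine (percent of the mean) against acrophase (ZT) for the 9 genes, control on the left and diabetic on the right, with bars for ± SE filled points for genes called rhythmic and a square without bars for *Insr*. The rhythmic genes sit in the grey dark phase between ZT16.1 and ZT19.2, and *Igf1* sits alone in the light phase with wide bars.

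Around these genes, 76 further genes of the pathway in 5 lists were followed, of which 69 were expressed. The lists were chosen with earlier results of these data known, so shares of them beside those of all genes are a description only. Over all time points 6 of 69 rose in diabetic retinas, beside 1.58% of all genes, and 0 of 69 fell in edgeR, beside 1.41% (5 were lower at an unadjusted p under 0.05, and DESeq2 called 0 of them lower). At single time points 0 of 414 tests passed in edgeR, with 31 at an unadjusted p under 0.05 and 0 called by DESeq2. In the lists, 3 of 19 FOXO targets rose (*Cdkn1a*, *Txnip* and *Ccng2*), 1 of 8 ligands and binding proteins (*Pappa*), 1 of 9 receptors and adaptors (*Gab1*), 1 of 25 genes of the PI3K, AKT and mTOR chain (*Inppl1*) and 0 of 8 FOXO partners. The medians of the 5 lists lay between 0.00 and 0.06 on the log2 scale, beside 0.00 over all genes.

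*Cdkn1a*, which encodes the cell cycle inhibitor p21, rose most. Control libraries had 16.6, 26.4 and 51.9 normalized counts (lowest, median and highest of 30) and diabetic libraries 16.8, 37.9 and 73.6, with a log2 difference of 0.52 (SE 0.12), a fold of 1.44 and an adjusted p of 0.00624. The ranges overlapped, and the diabetic mean was higher at 6 of 6 time points, by the most at ZT17 (53.3 ± 13.2 against 29.6 ± 9.18, SD, n = 4 and 5). *Txnip*, which encodes a thioredoxin inhibitor known to respond to glucose, had 55.4, 110 and 149 in control and 77.2, 129 and 207 in diabetic retinas (log2 difference 0.30, SE 0.08, adjusted p = 0.0231). It was higher at 5 of 6 time points and lower at ZT5.

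*Ccng2*, a cyclin gene of growth arrest and a FOXO target, had 333, 444 and 538 normalized counts in control and 386, 507 and 606 in diabetic retinas (log2 difference 0.19, SE 0.05, adjusted p = 0.0120). *Pappa*, a protease that frees IGF from its binding proteins, had 74.6, 106 and 129 in control and 84.6, 123 and 146 in diabetic retinas (0.22, SE 0.05, adjusted p = 0.00554). Both were higher at 6 of 6 time points, with overlapping ranges.

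*Gab1*, a docking protein beside the IRS adaptors, had 372, 456 and 576 normalized counts in control and 418, 498 and 684 in diabetic retinas (log2 difference 0.16, SE 0.04, adjusted p = 0.0181). *Inppl1*, which encodes the lipid phosphatase SHIP2 that removes the product of PI3-kinase, had 551, 711 and 966 in control and 622, 797 and 1092 in diabetic retinas (0.20, SE 0.05, adjusted p = 0.0301). Both means were higher in diabetic retinas at 6 of 6 time points.

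The size of these differences held when single time points were left out, while the calls did not always hold. Over all alternatives the log2 difference ran from 0.45 to 0.61 for *Cdkn1a*, 0.25 to 0.37 for *Txnip*, 0.19 to 0.25 for *Pappa*, 0.17 to 0.21 for *Inppl1*, 0.17 to 0.20 for *Ccng2* and 0.15 to 0.18 for *Gab1*. Each of the 6 lost its call in at least 1 fit without a time point, with a highest adjusted p over the alternatives of 0.0517 for *Pappa* (without ZT17), 0.0657 for *Cdkn1a* (without ZT21), 0.0943 for *Ccng2* (without ZT5), 0.106 for *Gab1* (without ZT21), 0.135 for *Txnip* (without ZT17) and 0.173 for *Inppl1* (without ZT21). The calls were not equally firm: *Pappa* lost its call in 1 of 14 alternatives and *Inppl1* in 7 of 14. For *Inppl1* these were 5 of the 6 fits without a time point, the fit without a filter on low counts (edgeR adjusted p = 0.0576) and the fit with replicate number as a block (edgeR adjusted p = 0.0605). With the GC trend removed all 6 passed, with adjusted p-values from 0.00178 to 0.0124.

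**Figure D5:**
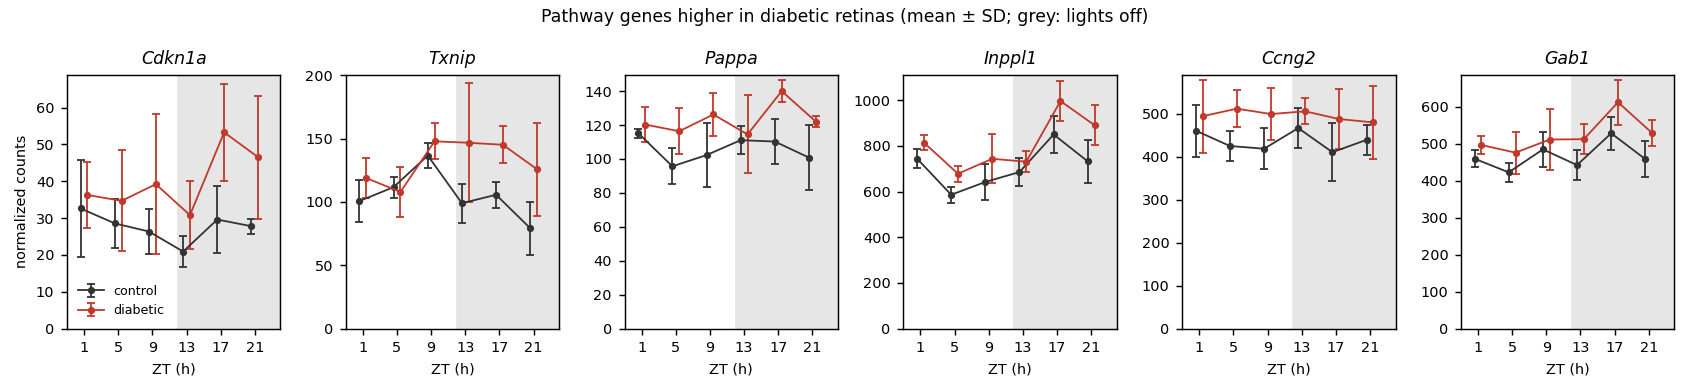
Normalized counts of the 6 pathway genes that rose, against ZT, as mean ± SD of 4 to 6 libraries (black, control; red, diabetic; grey, lights off). The red line lies above the black at every time point except for *Txnip* at ZT5 (108 against 112), and the gap for *Cdkn1a* is widest at ZT17 (53.3 against 29.6).

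Of the same 69 genes, 13 were rhythmic in control, 16 in diabetic and 6 in both, beside the 21.8%, 23.9% and 11.9% of all genes given above. *Inppl1* was rhythmic in both, with a relative amplitude of 15.2% ± 2.76 at ZT18.7 ± 0.696 h in control (n = 30, permutation p = 0.000438) and 16.1% ± 2.80 at ZT18.9 ± 0.676 h in diabetic retinas (n = 28, permutation p = 0.000426). It peaked at ZT17 with *Igf1r* and *Foxo1*, at 850 ± 81.5 and 996 ± 89.4 normalized counts (SD, n = 5 and 4), and no library at ZT17 overlapped those at ZT5. *Bnip3*, a FOXO target of mitophagy, was rhythmic in both as well, with 18.3% ± 3.57 at ZT19.3 ± 0.735 h in control and 14.2% ± 3.28 at ZT16.9 ± 0.865 h in diabetic retinas.

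*Igfbp5*, the gene of an IGF binding protein, was rhythmic in diabetic retinas (23.8% ± 5.50 at ZT16.8 ± 0.863 h, permutation p = 0.000287) and not called in control retinas (12.2% ± 6.28, permutation p = 0.501), and its difference in rhythm did not pass (p = 0.174). *Gsk3b*, an AKT substrate kinase, was rhythmic in diabetic retinas (5.89% ± 1.66 at ZT17.9 ± 1.07 h, permutation p = 0.000349) and had a p of 0.122 in control retinas by the same permutation test. With the GC trend removed it was called in control retinas too (permutation p = 0.00519), and its difference in rhythm did not pass (edgeR adjusted p = 1.00). *Tsc1*, a brake on mTOR, ran the other way, with a daytime acrophase of ZT7.42 ± 0.726 h and an amplitude of 6.92% ± 1.28 in diabetic retinas (permutation p = 0.000287). In control retinas *Tsc1* had an amplitude of 4.79% ± 1.20 at ZT8.06 ± 0.928 h (permutation p = 0.00904) and was not called, as its libraries spanned 1.24-fold. With the GC trend removed *Tsc1* was called in control retinas (permutation p = 0.00269, fold 1.30), and its difference in rhythm did not pass (edgeR adjusted p = 1.00).

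Across libraries the 9 genes did not vary as 1 block. As a description over 58 libraries that share time of day and the GC trend, the highest Pearson's r between members was 0.77 (*Irs2* and *Foxo3*), followed by 0.65 (*Igf1r* and *Foxo3*), and the lowest was -0.62 (*Igf1* and *Igf1r*). Among 11233 genes with a mean of at least 100 normalized counts, the closest to *Igf1r* in log2 values was *Pcnx* (r = 0.88) and to *Foxo3* *Bcr* (0.85). *Irs2* was closest to *Rnf44* (0.87), *Irs1* to *Arhgef12* (0.71), *Foxo1* to *Fam104a* (0.77) and *Foxo4* to *Flcn* (0.70), with the pathway gene *Inppl1* next for *Foxo4* (0.70). *Igf1* was closest to *Esco1* (0.93), *Igfbp2* to *Stmn3* (0.77) and *Insr* to *Dmxl2* (0.71).

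By position, the expressed genes lie on chromosomes 1 (*Igfbp2*, *Irs1*), 3 (*Foxo1*), 7 (*Igf1r*), 8 (*Insr*, *Irs2*), 10 (*Igf1*, *Foxo3*) and X (*Foxo4*) of GRCm38. *Igf1r* (ENSMUSG00000005533.10) spans 67952827 to 68233668 on the plus strand, *Irs1* (ENSMUSG00000055980.2) spans 82233101 to 82291416 on the minus strand, and *Foxo1* (ENSMUSG00000044167.6) spans 52268336 to 52353221 on the plus strand. Exons of 3 genes overlap a gene on the opposite strand, by 2822 bases for *Irs1* (*Gm9747*), 674 for *Foxo1* (*Gm20402*) and 162 for *Irs2* (*9530052E02Rik*). Those partners had means of 0.362, 0.966 and 3.62 reads per library. Whether the counting used strand is not given in the sources used here, so reads of such pairs cannot be told apart.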

How the data were processed

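Total RNA of single retinas was depleted of ribosomal RNA and sequenced as paired reads. The authors deposited raw counts per gene, made by aligning reads with STAR 2.7.4a to GRCm38.p5 with Gencode M15 and counting with HTSeq 0.11.1. All 58 columns were matched to samples by their labels. The genes and pathway lists were chosen with earlier results of these data known. Counts were scaled with DESeq2 1.42.0 size factors, and genes with a median above 4 normalized counts over 58 libraries (19120) were tested. Genotype was tested with edgeR 4.0.16 (quasi-likelihood, TMM, Benjamini-Hochberg over all tested genes, R 4.3.3). It was tested over all time points, without time as a term, and in 1 fit of 12 groups. DESeq2, which the study used, was an alternative. Empirical JTK_CYCLE was rewritten in Python 3.11.15 (30 waveforms, 1000000 shuffled series), and differences in rhythm were tested in edgeR in place of DODR. A 24 h cosine (least squares) gave amplitude and acrophase. Simulated data were used for the genotype test over all time points, the test of a difference in rhythm, JTK_CYCLE and the cosine. The simulated folds and amplitudes were larger than those given for the rhythmic members, and the other steps were not simulated. Named pathway genes were those with an adjusted p under 0.05 and the 5 rhythmic ones with the smallest p in either genotype. Gene positions and exon lengths came from Gencode M21 (GRCm38). No 2 libraries of the same group agreed within sampling noise (113 replicate pairs, chi-square per degree of freedom at least 1.94). Pairs of libraries from different groups were not compared. The GC trend was the median log2 deviation in 20 bins of genes of equal number, for 18360 of the 19120 genes with a known GC content. That correction, the fit without lens libraries and the permutation test of *Ins2* were chosen after seeing the data. Alternatives were the filter, the scaling, the fold, single time points, single libraries and a replicate block.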

Additional observations from a re-analysis of the deposited data

Results flagged for a closer look

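Within groups of 4 to 6 libraries, 14 of 120 groups (10 genes in 12 groups) held a library farther from the rest than Dixon's 95% limit, where chance flags about 5% of groups. For *Ins2* these were 3 control groups in which nearly all reads came from 1 library: 4.15 normalized counts at ZT5 (replicate 4, 4 reads), 1.55 at ZT9 (replicate 5, 2 reads) and 2.63 at ZT13 (replicate 2, 2 reads). *Igf1* was low in control ZT9 replicate 4 (397, next 599), a library with a high GC trend. *Igfbp2* was high in control ZT17 replicate 3 (182, next 143) and in diabetic ZT13 replicate 5 (172, next 131). *Irs1* was low in control ZT17 replicate 1 (895, next 1016) and diabetic ZT9 replicate 1 (754, next 908), and high in diabetic ZT21 replicate 5 (1081, next 1014). *Irs2* was high in diabetic ZT17 replicate 3 (1352, next 1121), which had the highest GC trend of the diabetic libraries. *Foxo1* was low in control ZT5 replicate 4 (508, next 583) and control ZT9 replicate 3 (555, next 600), and high in diabetic ZT5 replicate 4 (672, next 615). *Foxo4* was high in control ZT13 replicate 4 (275, next 244).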

How the results depend on the processing

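Of 782 results recomputed under an alternative, 679 kept their direction and their side of the threshold, as did 2919 of 3016 that left out 1 library. No alternative called any of the 9 genes between genotypes, over all time points or at 1. The count of all genes called over all time points was 919 with time as a term, 976 with the GC trend removed, and 322, 267, 357, 239 and 225 without ZT1, ZT5, ZT9, ZT17 and ZT21 (431 to 611 without single libraries). At ZT1 it was 1 without the low-count filter, 0 from libraries of that time only, 10 with the GC trend removed, 4 without lens libraries and 6 in DESeq2 (0 to 4 without single libraries). At ZT5 it was 28 from its own libraries, 10 with the GC trend removed and 24 in DESeq2 (2 to 8), at ZT9 3 unfiltered, 5 from its own libraries, 7 with the GC trend removed, 0 without lens libraries and 4 in DESeq2 (0 to 2), and at ZT13 1 with the GC trend removed and 1 in DESeq2 (0 to 1). At ZT17 it was 0 from its own libraries, 148 with the GC trend removed and 87 in DESeq2 (3 to 96), and at ZT21 1, 4 and 2 unfiltered, with the GC trend removed and in DESeq2 (0 to 1). The difference in rhythm called 3 genes unfiltered and 1 without ZT1 (0 to 1). All rhythmic genes numbered 1573 and 1967 with adjusted p and 2532 and 2710 with the fold of means in control and diabetic retinas, and 2691 in control without ZT17 (3527 to 4858 and 3974 to 4946 without single libraries). Rhythmic members numbered 0 with the fold of means, 5 without lens libraries, 5 without ZT1 and 5 without ZT9 in control (2 to 6), and 1 with the fold of means, 2 without ZT17 and 1 without ZT21 in diabetic retinas (4 to 5). Log2 differences near 0 changed sign: *Igf1* to -0.0047, -0.010 and -0.017 without ZT1, ZT5 and ZT17 (-0.015 to 0.030 without single libraries), *Igfbp2* to -0.0024 with the GC trend removed and -0.00084 and -0.037 without ZT9 and ZT13 (-0.021 to 0.024), and *Irs2* to 0.0093, 0.00087 and 0.012 without ZT1, ZT9 and ZT21 (-0.019 to 0.010). The cause was not tested. Replicate numbers are shared by the genotypes, and 21 of 26 same-numbered pairs correlated above 0.1 (median r = 0.31, 15 of 26 best with their own number), against a median of -0.094 over 114 pairs with different numbers, a hint of shared sets. As not every pair did and no label says what a number marks, the numbers were not taken to pair samples. With a replicate block, 10, 2 and 60 genes were called at ZT5, ZT9 and ZT17, and *Inppl1* was not called over all time points (adjusted p = 0.0605). Depth limits *Ins2*, whose reads per library lay mostly at or under 3.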
